A study of Mus musculus with 24 samples.

Results

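Mouse liver transcripts of 31 genes of fatty acid oxidation and ketogenesis were followed over the day in young and old animals. The genes were taken by name from a list of the pathway, by a rule that uses no measured value. The list itself was chosen with earlier results of these data known. All 31 were present among the 43629 gene identifiers of the files, and all 31 were among the 12261 genes that passed a filter of a mean of at least 1 TPM, a unit of transcript abundance per transcript length. RNA came from livers of wild-type mice of the C57BL/6 inbred strain, with young animals of about 4 months and old animals of about 19 months. Zeitgeber time (ZT) counts hours from lights on, and livers were sampled 6 times in steps of 4 h from ZT2 to ZT22, with 2 libraries per age and time and 24 in all. No treatment, sex or feeding schedule is given in the labels, and no label says whether libraries of 1 group are separate animals, so p-values measure the spread between these libraries, which may be technical. In bulk tissue, fewer cells of a type and less RNA per cell cannot be told apart.

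Fatty acids are activated to acyl-CoA by acyl-CoA synthetases such as Acsl1 and enter mitochondria through the carnitine shuttle of Cpt1a, Slc25a20 and Cpt2. In the matrix they pass through cycles of dehydrogenation, hydration, a further dehydrogenation and thiolysis, and the electrons reach the respiratory chain through the electron transfer flavoproteins. Peroxisomes shorten very long chains by related enzymes, and the liver turns much of the acetyl-CoA made in fasting into ketone bodies. The nuclear receptor PPARalpha induces many of these genes when food is absent. Of the 31 genes only Bdh1, beta-hydroxybutyrate dehydrogenase, is itself a ketone body enzyme, so the list is mostly one of oxidation.

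Promoter sequence is shown for the genes whose daily course is described at most length and for the head-to-head pair Hadha and Hadhb, which share 1 stretch between their starts. The RefSeq promoter table (GRCm38.p6) held 25 of the 31 genes. Angptl4, Vnn1, Decr1, Hsd17b4, Crat and Acaa2 were not among them. Capitals mark matches, on either strand, to AGGTCA (the nuclear receptor core motif), CACGTG (the E-box bound by clock factors), CCAAT (the CCAAT box) or GGGCGG (the GC box). Each stretch is written 5′ to 3′ on the strand of its gene, except the Hadha and Hadhb stretch, which is on the plus strand, and none overlaps an annotated exon.
Cpt1a, chr19:3323135-3323284, plus strand: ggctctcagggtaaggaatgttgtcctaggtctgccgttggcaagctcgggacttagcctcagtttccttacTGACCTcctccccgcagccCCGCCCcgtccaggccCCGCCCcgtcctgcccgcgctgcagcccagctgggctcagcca
Slc25a20, chr9:108661938-108662087, plus strand: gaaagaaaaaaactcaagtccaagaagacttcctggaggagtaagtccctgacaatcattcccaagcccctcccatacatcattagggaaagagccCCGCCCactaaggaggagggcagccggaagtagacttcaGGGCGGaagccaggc
Decr2, chr17:26090338-26090414, minus strand: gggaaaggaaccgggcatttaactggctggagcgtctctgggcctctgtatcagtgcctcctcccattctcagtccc
Pdk4, chr6:5496310-5496459, minus strand: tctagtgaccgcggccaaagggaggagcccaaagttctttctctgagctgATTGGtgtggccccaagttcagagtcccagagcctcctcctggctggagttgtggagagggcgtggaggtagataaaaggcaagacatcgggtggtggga
Hadha and Hadhb, chr5:30155163-30155247, plus strand: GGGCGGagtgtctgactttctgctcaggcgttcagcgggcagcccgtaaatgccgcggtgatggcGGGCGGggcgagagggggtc

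Over the 250 bases before each start, both strands, AGGTCA was found in 3 of the 25 genes (Acadm, Acadvl and Cpt1a) and in 14% of 32851 windows of all genes. The direct repeat AGGNCANAGGNCA, which contains a form of that motif at each end, was found in none of the 25 and in 0.338% of all windows. CACGTG was found in Fgf21 alone, against 6.02% of all windows, and TGACGTCA (the cyclic AMP response element) in none, against 1.55%. GGGCGG occurred in 17 of 25 and CCAAT in 12 of 25, against 32.7% and 33.8% of all windows. A gene was counted where any window listed for it matched, while the shares over all genes are of single windows. A gene with several windows has more chances to match, so the counts and the shares are not like measures. These are letter matches in a short window, and binding was not measured.

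Library depth, estimated from the ratio of deposited coverage to deposited FPKM, was 8.70 to 13.7 M reads (young 9.68 to 13.7 M, old 8.70 to 12.3 M), so the 2 ages overlapped in depth. Hepatocyte transcripts were abundant in every library, with albumin (Alb) at a median of 73712 scaled TPM in young and 62343 in old. Several libraries stood apart from the rest. Replicate 2 of young ZT18 held pancreatic acinar RNA (5 of 5 markers, summed level 2589 against at most 10.3 in any old library), and replicate 2 of old ZT6 held muscle RNA (Mb at 85.5 and listed at 0 in the other 23 libraries). All 5 muscle markers were highest in that library, but Myh4 was at only 2.35 and Myh6 at 0.071. Replicate 1 of old ZT14 had 3.42% of its TPM from mitochondrially encoded genes and replicate 2 had 8.74%. The next lowest library, replicate 2 of old ZT2, had 10.7%, the median was 13.0% and the highest library had 17.1%. The acute-phase transcript Saa1 reached 8046 and 1319 in the 2 old ZT10 libraries, against 99.9 and 82.6 in young ZT10. The adipocyte markers Plin1, Lep and Retn were at 0 in all 24 libraries. Of the other adipocyte markers, Adipoq was at 0 in 16 libraries and reached 0.855. Cfd was at 0 in 10 libraries and reached 7.69 in replicate 2 of old ZT6. The clock output gene Dbp was highest at ZT10 in both ages, at 115 and 92.0 in young and 96.6 and 77.0 in old.

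TPM divided by a scaling factor per library, called scaled TPM here, is per transcript length, so levels of different genes can be compared. Together the 31 genes made up 0.515% to 0.796% of all TPM in young libraries and 0.516% to 0.853% in old libraries, with medians of 0.604% and 0.602%. The range of the 2 ages was nearly the same. Acaa2, the last enzyme of the mitochondrial cycle (3-ketoacyl-CoA thiolase), had the highest median level over the 24 libraries, 833 scaled TPM, with a range of 656 to 1115. It was followed by the peroxisomal thiolase Acaa1b at 522, the electron transfer flavoprotein subunit Etfb at 464, the auxiliary dienoyl-CoA isomerase Ech1 at 418 and the other flavoprotein subunit Etfa at 397. Reads of Etfb, Acaa1b and Hadhb could be split with other genes, since 44.8%, 30.5% and 19.7% of the 50-base stretches of their transcripts also occur in transcripts of another gene, and Acaa1a shares 12.9% with others, mostly with Acaa1b.

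Fgf21, a fasting hormone, was lowest with a median of 1.29 scaled TPM and was listed at 0 in 2 old libraries. Pdk4, which blocks pyruvate entry into the citric acid cycle, had a median of 4.74, and Crat, carnitine acetyltransferase, one of 20.4. The carnitine shuttle genes lay in the lower part of the order, with Cpt1a at 79.7, Slc25a20 at 73.8 and Cpt2 at 58.7. Genes close in this order overlapped in their ranges: Slc25a20 spanned 52.9 to 95.7 and Cpt2 43.5 to 90.8. The ratio of the highest to the lowest library was 6.69 for Cpt1a and 1.81 for Slc25a20.

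**Figure D1:**
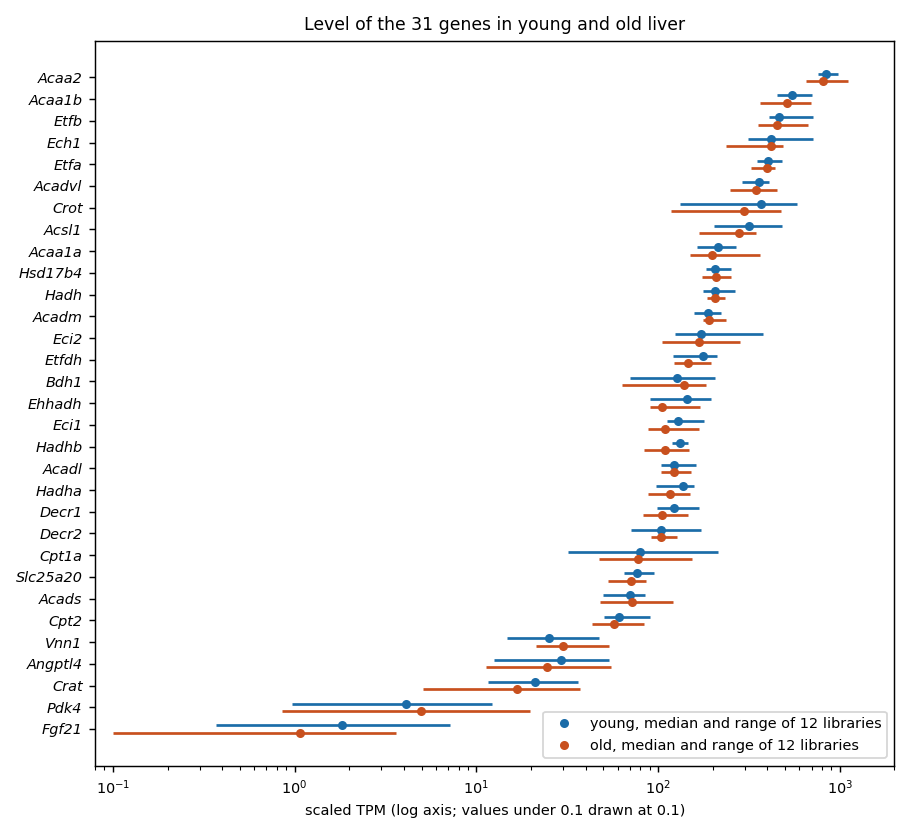
Level of each of the 31 genes in scaled TPM on a log axis, with the median (point) and the range (line) of the 12 young and the 12 old libraries. Acaa2 is highest at a median of 833 over all libraries and Fgf21 lowest at 1.29, and the ranges of the 2 ages overlap for every gene.

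The first question was which of the genes changed over the day. A wave of 24 h was fitted to log2(scaled TPM + 0.5) in each age. Amplitude below means the log2 difference between fitted peak and trough, and a gene was called where limma gave an adjusted p (Benjamini-Hochberg, all 12261 genes) below 0.05. Over both ages, 12 of 31 genes were called rhythmic (38.7%), against 23.9% of all genes tested. In the same limma test 13 of 31 genes had an unadjusted p under 0.05, against 35.4% of all genes. The median amplitude of the 31 genes was 0.297, below the 0.364 of all genes. Of the 12 called genes, 8 peaked between ZT7 and ZT14, where 29.4% of all rhythmic genes peaked. That window was not among the planned comparisons, so the 2 shares describe these peaks and were not tested. By role the calls fell on 4 of 6 genes of activation and the carnitine shuttle, 3 of 4 fasting-responsive genes and 2 of 5 auxiliary enzymes. They also fell on 1 of 4 mitochondrial dehydrogenases, 1 of 3 flavoprotein genes and Bdh1. The counts were 0 of 4 for genes from hydration to thiolysis and 0 of 4 for genes given the peroxisomal role. Crot, Decr2 and Eci2, which were called and are peroxisomal too, were counted under the shuttle (Crot) and the auxiliary enzymes (Decr2 and Eci2). With ZT10 left out in both ages, a choice made after seeing the data, 7 of 31 genes were called, and 14.1% of all genes.

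**Figure D2:**
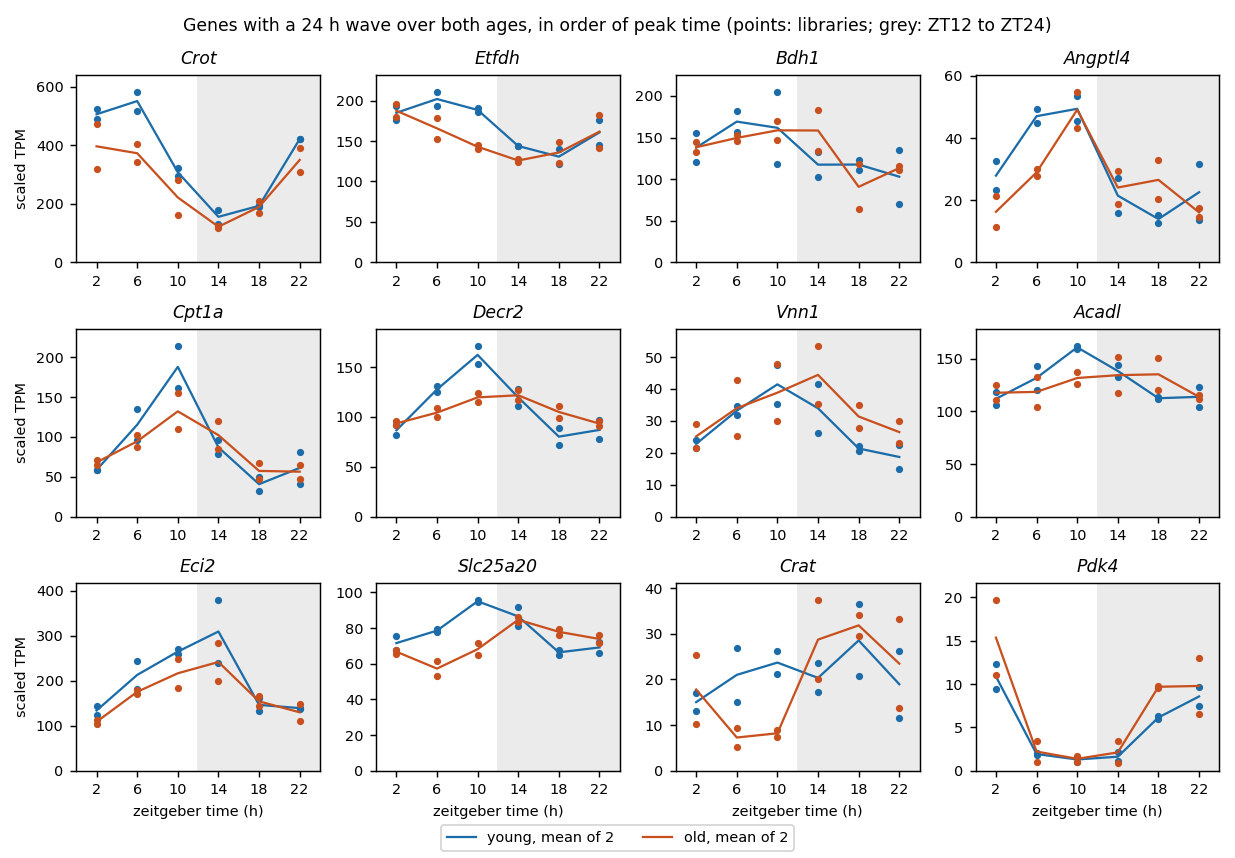
Scaled TPM by zeitgeber time (hours) for the 12 genes with a 24 h wave over both ages, in order of fitted peak time, with points for single libraries, lines through the mean of 2 libraries and grey for ZT12 to ZT24. In young liver Cpt1a, Decr2 and Slc25a20 stand highest at ZT10, and Crot and Pdk4 have their lowest values between ZT10 and ZT14 in both ages.

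Cpt1a (ENSMUSG00000024900, chromosome 19, 3323301 to 3385732, GRCm38) makes the outer-membrane carnitine palmitoyltransferase that controls entry of long chains into mitochondria. Young libraries read 58.9 and 58.1 at ZT2, 96.2 and 134 at ZT6, 214 and 162 at ZT10, 78.1 and 95.6 at ZT14, 32.0 and 49.3 at ZT18, and 40.9 and 81.2 at ZT22 scaled TPM. Old libraries read 65.0 and 71.2 at ZT2, 87.0 and 102 at ZT6, 109 and 155 at ZT10, 84.6 and 119.8 at ZT14, 47.3 and 67.4 at ZT18, and 47.6 and 65.1 at ZT22. Mean levels were highest at ZT10 in both ages and lowest at ZT18 in young and ZT22 in old, and at ZT10 both old libraries lay below both young. The wave over both ages had an amplitude of 1.56 (SE 0.20, adjusted p = 3.03e-05) with a fitted peak at ZT9.2.

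Slc25a20 (ENSMUSG00000032602, chromosome 9, 108662088 to 108684641), the carrier that swaps acylcarnitine for carnitine across the inner membrane, had the promoter stretch with 2 GC boxes printed above. Its level in young was 67.8 and 75.3 at ZT2, 79.2 and 77.9 at ZT6, 95.7 and 94.3 at ZT10, 91.8 and 81.2 at ZT14, 67.8 and 64.9 at ZT18, and 65.9 and 72.4 at ZT22. In old it was 65.7 and 67.8 at ZT2, 52.9 and 61.6 at ZT6, 71.3 and 64.9 at ZT10, 86.1 and 83.2 at ZT14, 76.0 and 79.7 at ZT18, and 71.3 and 76.4 at ZT22. Young libraries were highest at ZT10 and old libraries at ZT14, and the 2 ages did not overlap at ZT6, ZT10 or ZT18. At ZT6 and ZT10 the old libraries were the lower ones and at ZT18 the higher ones. The wave over both ages was small, with an amplitude of 0.30 (SE 0.08, adjusted p = 0.0178), and the call was lost with ZT10 left out (adjusted p = 0.0907) and with ZT14 left out (0.265).

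Crot (ENSMUSG00000003623, chromosome 5, 8966033 to 8997324) is the peroxisomal carnitine octanoyltransferase that hands shortened chains on to mitochondria. In young liver it stood at 489.7 and 522 at ZT2, 583 and 519 at ZT6, 321 and 295 at ZT10, 179 and 133 at ZT14, 189 and 198 at ZT18, and 419.9 and 422 at ZT22. Old liver gave 473 and 319.6 at ZT2, 343 and 403 at ZT6, 281 and 162 at ZT10, 126 and 118 at ZT14, 170.3 and 209 at ZT18, and 389.5 and 310.3 at ZT22. The early hours were high and ZT14 and ZT18 low in both ages. Crot was the most firmly rhythmic of the 31 genes, with an amplitude of 1.78 (SE 0.15, adjusted p = 9.23e-08) and a peak at ZT2.8.

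Crat, which moves acetyl groups between carnitine and coenzyme A, was at 13.0 and 17.02 at ZT2, 15.1 and 26.9 at ZT6, 26.2 and 21.2 at ZT10, 17.2 and 23.5 at ZT14, 20.7 and 36.4 at ZT18, and 11.6 and 26.3 at ZT22 in young. Its old libraries were at 10.2 and 25.4 at ZT2, 5.12 and 9.45 at ZT6, 8.99 and 7.44 at ZT10, 37.4 and 20.1 at ZT14, 34.1 and 29.5 at ZT18, and 13.7 and 33.2 at ZT22. Old liver was at its lowest at ZT6 and ZT10, where both old libraries lay below both young, while from ZT14 to ZT22 the ages overlapped. The wave over both ages had an amplitude of 1.20 (SE 0.29, adjusted p = 0.0129) with a peak at ZT17.8, but with the deposited TPM left unscaled the adjusted p was 0.0614 and without ZT10 it was 0.0524.

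Acadl, the long-chain acyl-CoA dehydrogenase of the first step of the mitochondrial cycle, changed little in size. Young values were 106 and 118 at ZT2, 120.2 and 144 at ZT6, 162 and 159.5 at ZT10, 145 and 132 at ZT14, 112 and 114 at ZT18, and 104 and 123 at ZT22. Old values were 110.4 and 125 at ZT2, 104 and 133 at ZT6, 126 and 137 at ZT10, 117 and 152 at ZT14, 120.3 and 150.4 at ZT18, and 112 and 116 at ZT22. Both young ZT10 libraries were above every other young library, and old libraries showed no such maximum. Amplitude over both ages was 0.35 (SE 0.09, adjusted p = 0.0204), and the call was lost without ZT10 (adjusted p = 0.232). The other 3 dehydrogenases were not called: Acadvl (very long chains) ranged from 249 to 452 over the 24 libraries, Acadm (medium chains) from 157 to 236 and Acads (short chains) from 47.8 to 121.

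Etfdh, the oxidoreductase that passes electrons from the flavoproteins to ubiquinone, gave 176 and 194 at ZT2, 193 and 211 at ZT6, 191 and 186 at ZT10, 144 and 144 at ZT14, 121 and 140.3 at ZT18, and 145 and 176 at ZT22 in young liver. In old liver it gave 195 and 179.7 at ZT2, 152 and 179 at ZT6, 145 and 141 at ZT10, 128 and 124 at ZT14, 123 and 149 at ZT18, and 141 and 182 at ZT22. Levels were lower at ZT14 and ZT18 than at ZT2 in both ages, and both old libraries lay below both young at ZT6, ZT10 and ZT14. The wave had an amplitude of 0.53 (SE 0.08, adjusted p = 0.000174) and peaked at ZT4.1. Its partners Etfa and Etfb, the 2 subunits of the flavoprotein, were not called and ranged from 327 to 480 and from 357 to 713.

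Among auxiliary enzymes, which act on the double bonds of unsaturated chains, the peroxisomal reductase Decr2 and the peroxisomal isomerase Eci2 were called. Decr2 (chromosome 17, 26081211 to 26090329) read 81.7 and 91.6 at ZT2, 131 and 125 at ZT6, 171 and 153 at ZT10, 128 and 111 at ZT14, 71.4 and 89.1 at ZT18, and 77.6 and 96.5 at ZT22 in the young series. The old series read 91.5 and 95.6 at ZT2, 99.9 and 109 at ZT6, 124 and 116 at ZT10, 127 and 117 at ZT14, 99.0 and 111 at ZT18, and 91.2 and 95.5 at ZT22. Both ages were higher at ZT10 than at ZT2, but old values covered a narrower range, lower at ZT6 and ZT10 and higher at ZT18 without overlap. Decr2 had an amplitude of 0.67 over both ages (SE 0.09, adjusted p = 3.7e-05) and a peak at ZT10.3.

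Eci2 stood at 124 and 145 at ZT2, 244 and 182 at ZT6, 259.9 and 269.9 at ZT10, 379.6 and 239.7 at ZT14, 161 and 132 at ZT18, and 138 and 141 at ZT22 in young. In old it stood at 113 and 105 at ZT2, 171 and 179.8 at ZT6, 249.6 and 184 at ZT10, 284 and 200.1 at ZT14, 165 and 143 at ZT18, and 149 and 111 at ZT22. Means of both ages were highest at ZT14, with replicate 1 above replicate 2 there in each age. Its amplitude was 1.15 (SE 0.14, adjusted p = 1.53e-05) with a peak at ZT11.6. The mitochondrial reductase Decr1, the isomerase Eci1 and Ech1 were not called.

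Bdh1, the ketone body enzyme, varied widely between libraries of the same group. Young libraries held 120.4 and 155 at ZT2, 182 and 157 at ZT6, 205 and 118 at ZT10, 102 and 133 at ZT14, 123 and 112 at ZT18, and 136 and 70.3 at ZT22. The old ones held 132 and 144 at ZT2, 154 and 146 at ZT6, 170.0 and 147 at ZT10, 183 and 134 at ZT14, 63.6 and 118 at ZT18, and 116 and 111 at ZT22. The single highest value was young ZT10 replicate 1, whose partner was at 118. A wave of amplitude 0.71 (SE 0.18) with a peak at ZT7.8 was called over both ages (adjusted p = 0.0182) but in neither age alone, and it was lost without ZT10 (adjusted p = 0.0679).

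Pdk4, whose protein slows glucose oxidation in fasting, had the widest daily swing of the 31 genes. In young it was at 9.48 and 12.3 at ZT2, 2.02 and 1.84 at ZT6, 1.64 and 0.970 at ZT10, 2.17 and 1.09 at ZT14, 6.00 and 6.31 at ZT18, and 9.62 and 7.52 at ZT22. In old it was at 11.02 and 19.7 at ZT2, 0.961 and 3.48 at ZT6, 1.73 and 1.04 at ZT10, 0.849 and 3.39 at ZT14, 9.59 and 9.79 at ZT18, and 6.50 and 13.1 at ZT22. Values from ZT6 to ZT14 were low in every library and those from ZT18 to ZT2 high, in both ages. The amplitude was 3.07 (SE 0.34, adjusted p = 3.59e-06), with a peak at ZT22.6, far from that of most other rhythmic genes of the list.

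Angptl4, a secreted inhibitor of lipoprotein lipase, was at 32.7 and 23.1 at ZT2, 44.8 and 49.3 at ZT6, 45.4 and 53.5 at ZT10, 15.8 and 27.2 at ZT14, 12.5 and 15.4 at ZT18, and 13.5 and 31.6 at ZT22 in young. It was at 21.3 and 11.2 at ZT2, 30.2 and 27.8 at ZT6, 55.0 and 43.3 at ZT10, 29.4 and 18.8 at ZT14, 20.2 and 32.9 at ZT18, and 17.6 and 14.5 at ZT22 in old. Young liver was already high at ZT6, both old libraries lay below both young at ZT2 and ZT6, and the ages overlapped at ZT10. Amplitude over both ages was 1.37 (SE 0.24, adjusted p = 0.000742) with a peak at ZT8.6, and without ZT10 the adjusted p was 0.0509. Vnn1, the pantetheinase vanin, read 21.6 and 23.995 at ZT2, 31.8 and 34.6 at ZT6, 47.6 and 35.3 at ZT10, 41.6 and 26.3 at ZT14, 22.2 and 20.5 at ZT18, and 14.8 and 22.5 at ZT22 in young. In old it read 28.9 and 21.4 at ZT2, 25.2 and 42.7 at ZT6, 47.8 and 29.8 at ZT10, 53.5 and 35.3 at ZT14, 27.6 and 35.1 at ZT18, and 30.0 and 23.0 at ZT22. Both ages were low at ZT22 and ZT2, and old libraries lay above young ones without overlap at ZT18 and ZT22. Vnn1 had an amplitude of 0.91 (SE 0.16, adjusted p = 0.000814) and a peak at ZT10.8.

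The next question was whether the waves differed between ages. Taken alone, young liver had 10 of 31 genes called rhythmic (10.7% of all genes) and old liver 8 of 31 (8.96% of all genes). At an unadjusted p under 0.05 by limma it was 11 of 31 in young (25.1% of all genes) and 14 of 31 in old (22.8%). Crot, Pdk4, Eci2, Cpt1a, Etfdh, Angptl4 and Slc25a20 were called in both ages. Decr2, Vnn1 and Acadl were called in young and Crat in old, which alone does not show a difference. A test of the difference between the 2 waves called 0 of 31 genes and 0% of all genes by limma, while 7 of 31 and 430 of 12261 genes had an unadjusted p under 0.05. The same steps on simulated data recovered 22% of planted wave differences of log2 1 and 76% of those of log2 2. The planted waves were present in young and absent in old, and no shift of peak time was planted. That run gave 81 calls in this test, which eases the adjusted threshold, so these shares need not hold for the measured data.

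Slc25a20 had the smallest p of the 31 genes in this test (unadjusted p = 0.000346, adjusted p = 0.435). Its fitted peak was ZT10.1 (SE 0.85 h) in young and ZT16.9 (SE 0.87 h) in old, with amplitudes of 0.48 and 0.47. The 2 fitted peak times were 6.79 h apart. The call in young was lost without either young ZT10 library, and the call in old was lost with unscaled TPM (adjusted p = 0.121) and with quantile normalization (0.0545). Decr2 came next (unadjusted p = 0.00253, adjusted p = 0.784), with an amplitude of 0.99 in young and 0.42 in old. Crat followed (unadjusted p = 0.00918) with 0.56 in young and 2.13 in old, then Angptl4 (0.0193) with peaks at ZT7.1 and ZT10.7, Acaa1b (0.0230), Etfdh (0.0329) with peaks at ZT5.6 and ZT2.5, and Cpt2 (0.0412). None passed after adjustment. Of the 12 genes rhythmic over both ages, 9 had a lower fitted amplitude in old, against 55.5% of all rhythmic genes, but over all 31 genes it was 16 (51.6%), against 55.7% of all genes tested.

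**Figure D3:**
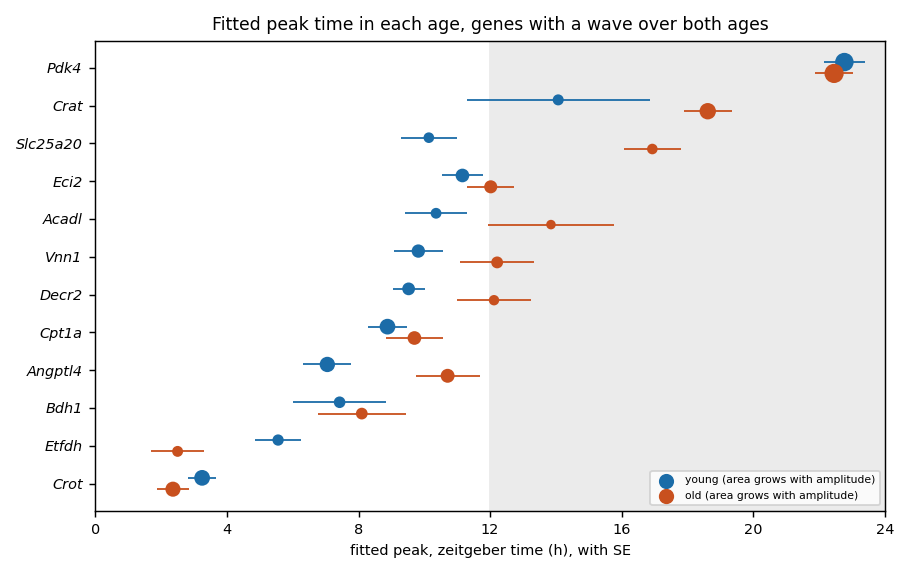
Fitted peak time (zeitgeber hours, with SE as horizontal lines) in young and old for the 12 genes rhythmic over both ages, with larger points for larger amplitudes and grey for ZT12 to ZT24. Slc25a20 is at ZT10.1 in young and ZT16.9 in old, while Crot, Pdk4, Cpt1a, Eci2 and Bdh1 keep peak times within 1 h, and no difference passed the adjusted threshold. Peaks are drawn also where the wave of an age was not called: Decr2, Vnn1 and Acadl in old, Crat in young, and Bdh1 in both ages.

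Averaged over the 6 times, no gene of the list passed the adjusted test of age (0 of 31, against 1.64% of all genes). At an unadjusted p under 0.05 there were 5 of 31 genes, or 1428 of 12261 over all. Fitted levels were lower in old for 25 of 31 genes, as for 53% of all genes, with a median log2 difference of -0.12 against -0.01 for all genes. That count depended on the scaling: it was 17 of 31 with unscaled TPM (median -0.01, all genes 0.09), 18 with unscaled FPKM and 19 with quantile normalization. The simulated data gave back 60% of planted age differences of log2 0.5 and 88% of those of log2 1. No difference below log2 0.5 was planted, all were upward in old, and noise was drawn separately for each library. These shares therefore do not cover smaller differences, such as the median of -0.12, and need not hold for the measured data.

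Crot had the smallest p, at a log2 difference of -0.35 (SE 0.10, adjusted p = 0.0997). Hadhb, the thiolase subunit of the mitochondrial trifunctional protein, came next at -0.26 (SE 0.07, adjusted p = 0.107). Its young libraries read 119 and 139 at ZT2, 131 and 142 at ZT6, 139.6 and 127 at ZT10, 145 and 141 at ZT14, 132 and 132 at ZT18, and 124 and 127 at ZT22. Its old libraries read 108 and 116 at ZT2, 107 and 122 at ZT6, 119 and 83.7 at ZT10, 95.4 and 119 at ZT14, 108 and 147 at ZT18, and 111 and 109 at ZT22. Old lay below young without overlap at ZT2, ZT6, ZT10, ZT14 and ZT22, while at ZT18 the 2 old libraries bracketed the 2 young. Leaving out replicate 1 of old ZT10 brought Crot and Hadhb past the threshold, and no other of the 24 single-library omissions called any of the 31 genes. With the replicate number as a block in the limma model, 1 of 31 genes was called, Crot (adjusted p = 0.0498). Calls over all genes then rose from 201 to 353, and no label says what the number marks. Hadha, which codes for the other subunit and shares the stretch between the starts printed above, lay below young without overlap at ZT10 alone, with 97.1 to 159 in young and 87.8 to 149 in old over the day (difference -0.15, SE 0.11).

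Slc25a20 was at -0.12 (SE 0.05, adjusted p = 0.347), Eci1 at -0.27 (SE 0.12, adjusted p = 0.379), Decr1 at -0.23 (SE 0.10, adjusted p = 0.401) and Eci2 at -0.21 (SE 0.10, adjusted p = 0.434). Eci1, the mitochondrial enoyl-CoA isomerase, was at 133 and 119.9 at ZT2, 160.2 and 116 at ZT6, 124 and 142 at ZT10, 179 and 113 at ZT14, 164 and 125 at ZT18, and 179 and 124 at ZT22 in young. It was at 115 and 109.6 at ZT2, 102 and 102 at ZT6, 122 and 88.3 at ZT10, 168 and 97.6 at ZT14, 134 and 108 at ZT18, and 143 and 104 at ZT22 in old. Old was below young without overlap at ZT2, ZT6 and ZT10, and the ages overlapped at the later times. Decr1, the mitochondrial dienoyl-CoA reductase, read 119 and 98.8 at ZT2, 126 and 108 at ZT6, 116 and 126 at ZT10, 165 and 108 at ZT14, 133 and 129 at ZT18, and 169 and 101 at ZT22 in young libraries. In old libraries it read 91.3 and 82.2 at ZT2, 98.7 and 96.3 at ZT6, 119 and 83.4 at ZT10, 146 and 115 at ZT14, 131 and 111 at ZT18, and 115 and 89.6 at ZT22. Separation without overlap was limited to ZT2 and ZT6. Fitted levels were lower in old at 6 of 6 times for 7 genes (Hadhb, Acaa2, Decr1, Eci1, Etfa, Etfb and Crot), against 4.83% of all genes, but with unscaled TPM each of these 7 except Hadhb turned higher at ZT14, and Hadhb turned higher at ZT18. Of the 31 genes, 0 were higher in old at 6 of 6 times, against 4.56% of all genes.

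At ZT10, where most rhythmic genes of the list were near their peak, 29 of 31 genes had a lower fitted level in old. No gene passed the adjusted test (0 of 31, against 0.53% of all genes), and 11 of 31 had an unadjusted p under 0.05, as did 971 of 12261 over all. The median log2 difference was -0.36, against -0.02 for all genes, of which 52.7% were lower. For 19 of 31 genes both old libraries lay below both young (19.8% of all genes), and for 0 of 31 both lay above (16.1% of all genes). The direction held under each scaling, with 29 to 30 of 31 genes lower and Bdh1 the gene that changed sign. It rested in part on replicate 2 of old ZT10: without that library the median was -0.13 and 23 of 31 genes were lower, and without replicate 1 it was -0.46 and 31 of 31.

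By role, the old-minus-young values at ZT10 were lowest in activation and the carnitine shuttle, with 6 of 6 genes lower and a median of -0.62, followed by the peroxisomal genes with 4 of 4 and -0.56. Auxiliary enzymes had 5 of 5 lower with a median of -0.35, and genes from hydration to thiolysis 4 of 4 with -0.27. Medians were nearer 0 for dehydrogenases (-0.10), flavoprotein genes (-0.09, with Etfdh at -0.40) and fasting-responsive genes (-0.06, with Fgf21 at -2.16, the lowest of the 31), and Bdh1 was at 0.02. None of these values passed a test, and differences between roles were not tested. Slc25a20 had the smallest p, with a difference of -0.48 (SE 0.13, adjusted p = 0.129), then Acaa1b with -0.69 (SE 0.21, adjusted p = 0.209), Cpt2 with -0.71 (SE 0.22, adjusted p = 0.265), Acsl1 with -0.97 (SE 0.34, adjusted p = 0.334), Decr2 with -0.44 (SE 0.15, adjusted p = 0.337) and Crat with -1.47 (SE 0.52, adjusted p = 0.353).

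Acaa1b, the peroxisomal thiolase, was at 512 and 475 at ZT2, 620.2 and 501 at ZT6, 579.9 and 708 at ZT10, 611 and 453 at ZT14, 574 and 516 at ZT18, and 619 and 524 at ZT22 in young. In old it was at 520.3 and 585 at ZT2, 364 and 462 at ZT6, 400.4 and 392 at ZT10, 691 and 490.4 at ZT14, 575 and 667 at ZT18, and 579 and 509 at ZT22. At ZT6 and ZT10 both old libraries lay below both young, and at ZT18 both lay above. Cpt2, the inner-membrane palmitoyltransferase that ends the shuttle, gave 59.1 and 60.4 at ZT2, 53.2 and 81.1 at ZT6, 90.8 and 84.9 at ZT10, 62.4 and 57.8 at ZT14, 57.0 and 70.9 at ZT18, and 50.6 and 73.4 at ZT22 in young. Old liver gave 61.1 and 54.3 at ZT2, 43.5 and 51.3 at ZT6, 49.3 and 58.2 at ZT10, 64.6 and 61.3 at ZT14, 57.1 and 83.6 at ZT18, and 57.9 and 57.1 at ZT22. Young libraries were highest at ZT10 and old libraries were not, and old lay below young without overlap at ZT6 and ZT10 only. Acsl1, the main long-chain acyl-CoA synthetase of liver, gave 307 and 293 at ZT2, 239 and 328 at ZT6, 484 and 345 at ZT10, 256 and 325 at ZT14, 219 and 418 at ZT18, and 202 and 455 at ZT22 in young. In old liver it gave 347 and 292 at ZT2, 168 and 217 at ZT6, 206 and 210.0 at ZT10, 328 and 280.1 at ZT14, 298 and 334 at ZT18, and 248 and 277 at ZT22. Replicates of young ZT18 and ZT22 differed widely, yet at ZT6 and ZT10 both old libraries were below both young.

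**Figure D4:**
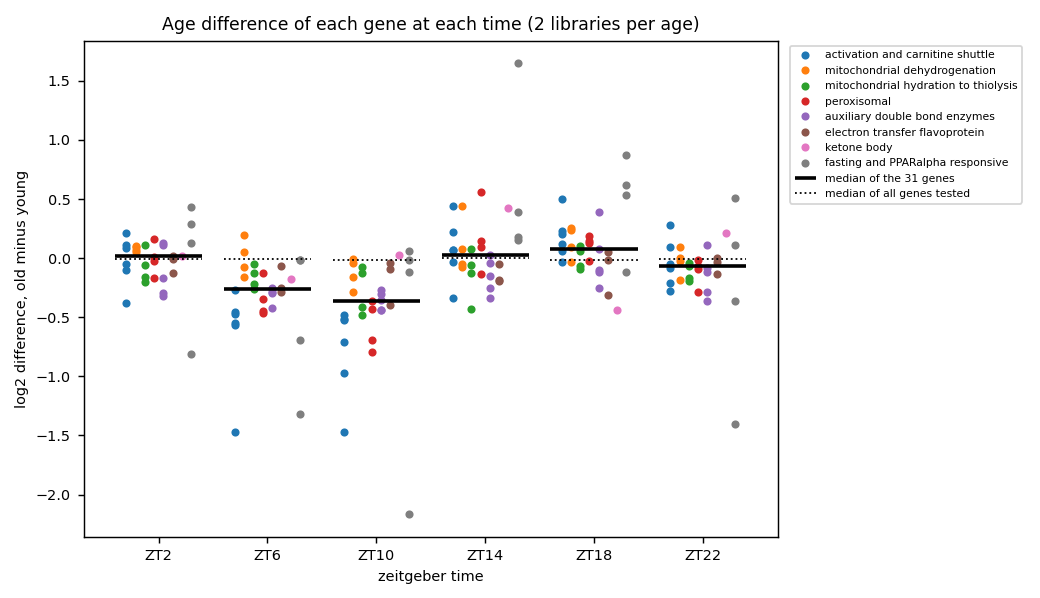
Log2 difference, old minus young, of each of the 31 genes at each zeitgeber time (2 libraries per age), coloured by role, with a solid line at the median of the 31 genes and a dotted line at the median of all genes tested. The median is -0.26 at ZT6 and -0.36 at ZT10 and lies near 0 at the other times, and no single difference passed the adjusted threshold.

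At ZT6 the picture was similar, with 29 of 31 genes lower in old and a median of -0.26, against 51.4% lower and -0.01 over all genes. Again 0 of 31 genes passed (0% of all genes) and 4 of 31 had an unadjusted p under 0.05, as did 495 over all. Both old libraries lay below both young for 17 of 31 genes (14.1% of all genes) and above for 0 of 31 (13.3%). Under the other scalings 25 to 28 genes were lower, with Etfa, Hadh, Pdk4 and Vnn1 turning higher with unscaled TPM. The shuttle genes were 6 of 6 lower with a median of -0.51, led by Slc25a20 at -0.46 (SE 0.13, adjusted p = 0.55), Crat at -1.47 (SE 0.52) and Crot at -0.57 (SE 0.24). Without the old ZT6 library that held muscle RNA, 30 of 31 genes were lower and the median was -0.35.

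Markers of other cells and of inflammation were high in some old libraries of these times. In old ZT10, replicate 2 had the lower value of the pair for 23 of 31 genes. It also held the highest Kupffer cell and macrophage markers Clec4f (140.0), Cd5l (281), Vsig4 (110.4) and Adgre1 (33.8). The neutrophil markers S100a8 (63.7), S100a9 (57.0) and Ngp (9.23) were highest there too. Replicate 1 of old ZT10 held the highest Marco (53.9), the remaining Kupffer cell and macrophage marker, and the highest Saa1. Summed over 5 markers, Kupffer and macrophage transcripts ranged from 201 to 276 in young and from 199 to 612 in old, with none of the 5 at 0 in any library. Summed over 3 markers, neutrophil transcripts ranged from 2.27 to 22.5 in young and from 2.63 to 129.96 in old, with S100a8 at 0 in 6 libraries and Ngp in 16. In old ZT6, Saa1 stood at 1199 and 701, against 146 and 66.9 in young. Saa1 was also at 2564 in replicate 1 of old ZT2 (91.4 in replicate 2), a time at which 14 of 31 genes were lower in old. Their part in the lower levels of the 31 genes was not tested.

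At the other times the genes split both ways. No gene of the list passed at ZT2 (0% of all genes called), ZT14 (0.0408%), ZT18 (0.0245%) or ZT22 (0.00816%). Old was lower for 14 of 31 genes at ZT2 (50.9% of all genes), 15 at ZT14 (49.6%), 12 at ZT18 (52.3%) and 22 at ZT22 (51.1%). Directions at ZT14 depended on the scaling, since unscaled TPM moved the median of all genes there by 0.36 and unscaled FPKM by 0.21, and left 1 and 4 of 31 genes lower. Old ZT14 holds the libraries with a low share of mitochondrially encoded RNA. At ZT18 both old libraries lay above both young for 7 genes (Slc25a20, Acadl, Acaa1b, Decr2, Pdk4, Angptl4 and Vnn1), against 13.6% of all genes, and below for Acaa2 (14.3% of all genes). Decr2 was at 0.39 (SE 0.15, adjusted p = 0.969) and Angptl4 at 0.87 (SE 0.39, unadjusted p = 0.0399) at that time. Young ZT18 includes the library with pancreatic RNA. Without it 14 of 31 genes were lower in old at ZT18, Decr2 was at 0.55 and Angptl4 at 1.013, with 1 young library left.

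Whether the age difference itself varied over the 6 times was tested without assuming a wave, and 0 of 31 genes passed (0.0163% of all genes). In this limma test 5 of 31 genes, and 442 over all, had an unadjusted p under 0.05. By limma they were Slc25a20 (unadjusted p = 0.00506), Decr2 (0.0162), Acaa1b (0.0353), Fgf21 (0.0385) and Crat (0.0424). None passed after adjustment. Fgf21, the fasting hormone, read 2.22 and 0.868 at ZT2, 1.45 and 2.98 at ZT6, 3.64 and 7.14 at ZT10, 0.520 and 0.370 at ZT14, 2.28 and 0.780 at ZT18, and 2.85 and 0.525 at ZT22 in young. In old it read 1.02 and 3.15 at ZT2, 0 and 1.68 at ZT6, 0.463 and 1.13 at ZT10, 3.60 and 1.63 at ZT14, 0.487 and 2.55 at ZT18, and 0.484 and 0 at ZT22, near the limit of what this depth resolves. Its fitted difference at ZT10 was -2.16 on the log2(scaled TPM + 0.5) scale (SE 0.78, adjusted p = 0.383), which understates changes of low genes.

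The rest of the pathway was read from a second list of 65 genes, of which 63 were tested. Over the day 1 of 63 differed between ages, a share near the 1.64% of all genes. It was the peroxisomal carrier of coenzyme A Slc25a17, which fell by 0.27 on the log2 scale (SE 0.05, adjusted p = 0.0164). The call was lost under each other scaling (adjusted p = 0.372 with unscaled TPM, 0.0816 with unscaled FPKM and 0.0676 with quantile normalization). Its young libraries lay between 51.3 and 76.5 scaled TPM and its old libraries between 46.1 and 59.7. Next were Fabp1, the liver fatty acid binding protein (-0.43, adjusted p = 0.136), and the peroxisomal racemase Amacr (-0.17, adjusted p = 0.14). At ZT10, 49 of 63 were lower in old with a median of -0.23, and 0 of 63 passed. Oxct1, which uses ketone bodies and is low in hepatocytes, had a difference of 1.16 there (SE 0.33, adjusted p = 0.169).

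Rhythms over both ages were called for 23 of 63 of these genes (36.5%), against 23.9% of all genes, among them 7 of 26 other mitochondrial genes, 8 of 16 peroxisomal genes and 7 of 17 regulators. By limma 27 of the 63 had an unadjusted p under 0.05, against 35.4% of all genes. Ppara, which codes for PPARalpha, had an amplitude of 1.15 (SE 0.28, adjusted p = 0.0139, and 0.245 without ZT10) and a peak at ZT10.2, within 1 h of the peak of Decr2 and of Cpt1a. The lipase Pnpla2 (1.43, peak ZT8.3) and the carnitine transporter Slc22a5 (1.005, peak ZT10.8) peaked in the same part of the day. Ppard (2.91, peak ZT22.2) and the peroxisomal lyase Hacl1 (1.36, peak ZT22.6) peaked at the opposite time, near Pdk4. Crot, Etfdh and Crat of the first list were also called and peaked away from Ppara. No relation between the peak of Ppara and those of other genes was tested. Other called genes were Mgll, Amacr, Pex11a, Slc27a2, Acox2, Acsl5, Lpin1, Klf15, Acacb, Abcd2, Ppargc1b, Echdc3, Nudt19, Mlycd, Slc25a42, Slc25a17 and Acsl4.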

How the data were processed

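Poly(A) RNA of 24 liver samples was read from 1 end over 50 bases with strand kept, per the labels' protocols. The submitters' processing notes name HISAT2, StringTie and GRCm38, and versions are not given in the sources used here. The authors deposited 3 values per gene and library. The deposited coverage is the mean read depth over a gene's exons, the deposited FPKM is scaled by the authors for depth and length, and the deposited TPM sums to the same total in each library. No read counts were used, so counting error of single values is unknown, and depth was estimated from coverage and FPKM.

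TPM were divided by median-of-ratios factors (0.817 to 1.23) over the 13270 genes above 0 in all 24 libraries. Genes were kept where TPM averaged 1 or more, which left 12261. For these, limma 3.58.1 under R 4.3.3 modelled log2(scaled TPM + 0.5), with variances moderated along a trend in mean level. Age differences, old minus young, came from a mean per age and time (12 groups, 12 residual df). Rhythms and their difference came from a cosine and a sine with a 24 h period in each age (18 residual df). A p was adjusted over all genes tested, separately in each comparison. Tables were built with pandas 2.3.3 and numpy 2.4.6 in Python 3.11.15, and plots with matplotlib 3.10.9. Steps were tested on simulated data.

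The 31 genes, the second pathway list and the marker lists were chosen with earlier results of these data known, so neither list is independent evidence of a direction. Genes past the threshold are described per library, or the 6 with the smallest p where fewer passed (for the single times, over ZT6 and ZT10), and of the second list those past the threshold or up to 3. The enzyme gene Bdh2 has 2 overlapping identifiers and was not counted. Values of 1 gene of the second list are not reported here. Alternatives were unscaled TPM and FPKM, quantile normalization, pseudocounts of 0.1 and 1, a filter at 5 TPM and none, no intensity trend, the replicate number as a block, each library left out in turn, the pair of libraries with pancreatic or low mitochondrial RNA left out together, and, added after seeing the data, ZT10 or ZT14 left out.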

Additional observations from a re-analysis of the deposited data

How the results depend on the processing

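Directions of single genes changed with the scaling: over the day 8 of 31 changed sign with unscaled TPM, 7 with unscaled FPKM and 6 with quantile normalization, and at ZT14 14, 11 and 7 did. With the replicate number as a block, 1 of 31 genes was called for age over the day (Crot, adjusted p = 0.0498; 2.88% of all genes), 13 were rhythmic over both ages (30.1%), 10 in young (15.9%) and 10 in old (12.2%). Libraries of the same number deviated together in 52 of 66 pairs of groups (correlation over 0.1, median 0.186) but not in every pair (lowest -0.158), and no label says what the number marks, so they were not treated as pairs. With ZT10 left out in both ages, 7 genes were rhythmic over both ages and 4 in old, with 1 time fewer in the fit. Leaving out single libraries gave 0 to 2 genes called for age over the day, 0 at single times, 0 for age by time and 0 for the rhythm difference. It gave 12 to 13 rhythmic genes over both ages, 8 to 10 in young and 6 to 9 in old. At ZT6, 25 to 30 genes were lower in old, with medians of -0.35 to -0.22, and at ZT10, 23 to 31 with medians of -0.46 to -0.13. In old, the call of Angptl4 was lost in 9 of 24 such fits, without filter (adjusted p = 0.0651) and without the pair of doubted libraries (0.0627). Etfdh in old was lost with unscaled TPM (0.312), unscaled FPKM (0.0716), quantile normalization (0.0964), ZT14 left out (0.118) and without old ZT2 replicate 1. Cpt1a in old was lost without ZT10 (0.156) or ZT14 (0.0668) and without old ZT10 replicate 2 or old ZT22 replicate 1, Slc25a20 in old without old ZT6 replicate 1, and Acadl in young with unscaled TPM (0.0692) and in 6 of 24 single omissions. Low genes such as Fgf21 and Pdk4 are the least precise at this depth.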

Other observations

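The replicate number moved with the level of many genes, in the 31 genes about as often as over all. The same replicate was higher in at least 11 of the 12 age and time groups for 15.8% of all genes tested and for 5 of 31 (16.1%). Ehhadh, the peroxisomal bifunctional enzyme, was higher in replicate 2 in 11 of 12 groups, with a mean log2 difference of 0.45. Hadh, Decr1, Eci1 and Etfb were higher in replicate 1 in 11 of 12 groups, with mean log2 differences, replicate 2 minus replicate 1, of -0.18, -0.28, -0.34 and -0.39. Cpt1a was higher in replicate 2 in 10 of 12 groups (0.35), and Slc25a20 was split at 6 and 6. The labels do not say what the number marks.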
